A study of Alternanthera philoxeroides with 2 samples.

Results

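The unigenes described here are 116 abundant transcripts of alligator weed roots whose level was at most 0.5 of the control level in roots under low-potassium treatment. They were drawn from 64763 unigenes, the contigs into which a de novo assembly joined the reads. Each had 1000 fragments or more over both libraries, an FPKM ratio (low potassium over control) of 0.5 or less, a GC content of at least 35% and under 50%, and an ID either of a contig cluster or of a single unigene numbered up to 19950. FPKM is the number of fragments per kilobase of unigene, scaled by the library's total. Contigs were left out where their cluster also held a contig at least 2-fold higher (both counted at 100 fragments or more). The members were chosen by the FPKM ratio of these same libraries, while the limits on GC and ID were meant to keep unigenes that look like plant transcripts. No unigene sequences were used here, so their origin was not checked, and the members are called reduced unigenes below.

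The low-potassium group was 1 root library (16.2 M fragments) from plants kept for 10 days in hydroponic solution and then for 7 days in a solution lacking potassium sulfate. The control group was 1 root library (18.9 M fragments) from plants that had the same 10 days and then 7 more in normal solution. Both groups came from shoots of Alternanthera philoxeroides gathered from a field, and sulfate supply and the transfer itself cannot be told apart from potassium supply. With 1 library per condition there was no replicate check and no test between conditions, and intervals give counting error only. How many plants a library held is not given in the sources used here.

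Potassium is the main inorganic cation of plant cells, where it supports osmotic pressure, membrane potential and the activity of many enzymes. Roots take it up through channels and high-affinity transporters, and plants short of it are known to change transcripts of transporters, hormone signalling and reactive oxygen metabolism. The files do not pair unigene IDs with gene names, so none of the 116 can be placed in these pathways. In libraries from whole roots, fewer cells of a type and less RNA per cell cannot be told apart.

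The fragment limit left 5065 unigenes, of which 183 (3.61%) had a ratio of 0.5 or less. Of these 183, the GC limits removed 56. Among those 56, 45 had 50% GC or more and 11 under 35%. The ID limit took away 3 more and the cluster limit 8, which left the 116. They comprised 78 contigs of 67 clusters and 38 single unigenes. Under the same limits on abundance, GC content, IDs and clusters there were 4630 unigenes, so 2.51% of these were reduced, while 366 (7.90%) were at least 2-fold higher and 4148 lay between. The FPKM ratio chose the members, so these shares describe the choice and nothing is read from them.

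**Figure D1:**
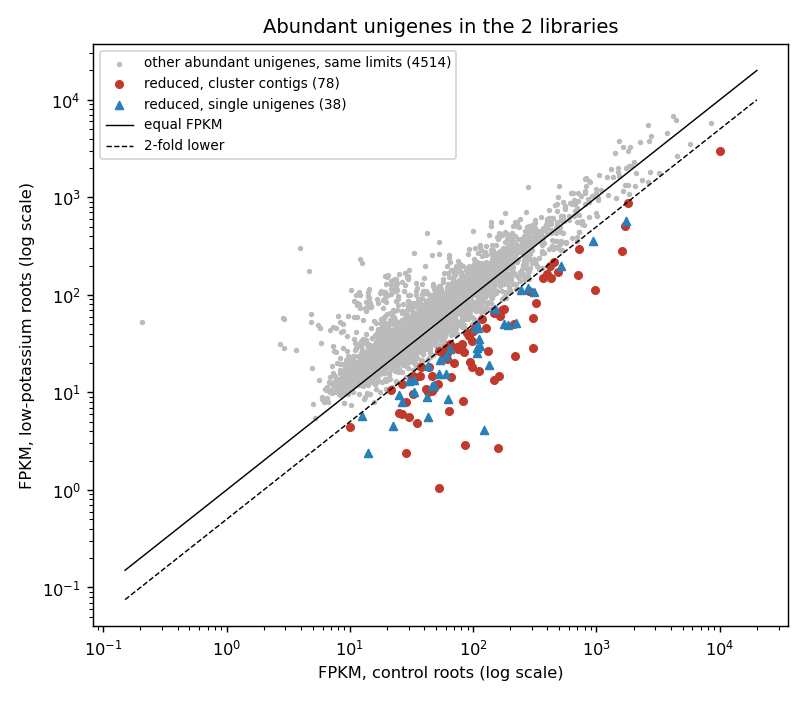
FPKM of abundant unigenes in low-potassium roots (vertical, log scale) against control roots (horizontal, log scale), 1 point per unigene. The 78 reduced cluster contigs and 38 reduced single unigenes lie under the dashed 2-fold line by construction and extend from 9.96 to 10114 FPKM in control roots.

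As a group the reduced unigenes took 0.906% of the low-potassium fragments (exact 95% interval 0.901 to 0.910) and 2.89% of the control fragments (2.88 to 2.90). That is 146899 fragments in the low-potassium library and 547626 in the control library, a 3.19-fold lower share (3.17 to 3.21). The most abundant member alone held 25.8% of the members' low-potassium fragments and 27.1% of their control fragments. Without it the members' share was 0.672% in low-potassium and 2.11% in control roots, and the joint difference was 3.13-fold (3.11 to 3.15). So the joint difference was close to the same size with and without the largest contributor. Every member was cut at the same ratio limit, so this is a description.

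The median reduced unigene was 2.98-fold lower, a log2 ratio of -1.58, beside a median of 0.35 over the 4630 unigenes under the same limits. The members' median was 3.80-fold below that of their class, a gap set by the choice of members. Their middle 50% spanned 2.38-fold to 4.38-fold, and the whole set 2.01-fold to 59.1-fold. There were 40 members between 2-fold and 2.5-fold lower, 38 between 2.5-fold and 4-fold, 26 between 4-fold and 8-fold and 12 lower by more than 8-fold. A ratio of 0.25 or less was found for 38 members, which are 0.821% of the 4630 under the same limits. For 103 members (2.22% of the 4630) the whole counting interval lay beyond 2-fold lower, and for the other 13 it reached across that limit. Both shares count the members themselves, so nothing is read from them. All 116 carry the word Down and an FDR of 0.001 or less in the authors' deposited table, with 5.92e-30 the largest; it sets 1 library against another, without replicates, and 2.51% of the 4630 passed it with a ratio of 0.5 or less.

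At the ratio limit the values ran on without a gap. The 5 members nearest to it were 2.01-fold to 2.08-fold lower, and the 5 unigenes just outside were 1.98-fold to 1.998-fold lower. The last one inside had 699 low-potassium and 1644 control fragments, 2.01-fold lower with an interval of 1.84 to 2.20. The first one outside had 1162 low-potassium and 2711 control fragments, 1.998-fold lower with an interval of 1.86 to 2.14. At the limit on abundance, the 5 members with fewest fragments had 1008 to 1050, and the 5 nearest unigenes left out had 955 to 996 and were 2.31-fold to 4.96-fold lower.

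The limits on abundance and ratio together favour unigenes that are high in the control library, so the levels that follow describe the members and not a trait apart from the choice. Their median was 25.4 FPKM in low-potassium roots and 85.7 FPKM in control roots, whereas the 4148 unigenes within 2-fold had medians of 44.3 FPKM in low-potassium and 37.8 FPKM in control roots. The median rank by FPKM among all unigenes was 6295.5 in the low-potassium library and 1336 in the control library. Of the 116, 2 stood among the 100 unigenes of highest FPKM in low-potassium roots and 9 in control roots. Among the first 1000 there were 15 in low-potassium and 45 in control roots. A level under 10 FPKM was found for 22 members in low-potassium roots and for 1 in control roots.

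The most abundant member, CL5560.Contig2_All, has 776 bases and 37.8% GC. It had 37841 fragments (3007 FPKM) in low-potassium roots and 148616 fragments (10114 FPKM) in control roots. This contig was 3.36-fold lower (3.33 to 3.40), and by FPKM it ranked 20 in the low-potassium library and 4 in the control library. Its cluster holds 1 other contig, of 740 bases and 37.7% GC, with 68886 fragments in low-potassium roots and 118746 in control roots. That one was 1.48-fold lower, so both contigs of the cluster were lower, by different amounts. The member held 35.5% of the cluster's low-potassium fragments and 55.6% of its control fragments, and the cluster as a whole was 2.15-fold lower (2.13 to 2.16). Uniquely mapped reads on the member were 3.39-fold lower, and its placements of reads with several hits were 1.27-fold lower, both per library fragment total. Reads placed on both contigs of such a cluster cannot be told apart in the files.

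The next 4 by fragments had control levels between 1614 and 1813 FPKM. A contig of 1231 bases had 5622 fragments (282 FPKM) in low-potassium roots and 37612 (1614 FPKM) in control roots, 5.73-fold lower (5.57 to 5.89), the largest difference among the 10 most abundant. A contig of 980 bases had 8091 fragments (509 FPKM) under low potassium and 31890 (1718 FPKM) in the control, 3.38-fold lower (3.29 to 3.46). A contig of 658 bases was nearer the limit, with 9294 fragments (871 FPKM) in low-potassium roots and 22594 (1813 FPKM) in control roots, 2.08-fold lower (2.03 to 2.13). Of its read placements over both libraries 77.1% were of reads with several hits, and these were 1.28-fold lower per library fragment total. Its fragments outnumbered its uniquely mapped reads, 8582 in low-potassium and 20602 in control roots, so its count includes some reads with several hits. The other contig of its cluster had 138404 low-potassium and 292204 control fragments, a ratio of 0.553. The 658-base member held 7.18% of the cluster's control fragments, and the cluster sum was 1.83-fold lower (1.81 to 1.84). The single unigene of 685 bases had no read with several hits. It had 6338 fragments (571 FPKM) in low-potassium roots and 22519 (1736 FPKM) in control roots and was 3.04-fold lower (2.96 to 3.13).

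The other 5 of the 10 most abundant lay between 400 and 935 FPKM in control roots. The contig of 1700 bases had 173 FPKM under low potassium and 489 FPKM in the control, 2.83-fold lower (2.74 to 2.93). The contig of 977 bases had 159 FPKM in low-potassium roots and 713 FPKM in control roots, 4.48-fold lower (4.29 to 4.67). The single unigene of 613 bases, with the lowest GC content of all members (35.1%), had 353 FPKM in low-potassium roots and 935 FPKM in control roots, 2.65-fold lower (2.55 to 2.75). The remaining 2, of 1523 and 1301 bases, were 2.42-fold and 2.11-fold lower. Together the 10 most abundant held 59.3% of the members' control fragments and were 3.23-fold lower (3.20 to 3.25), and the other 106 were 3.15-fold lower (3.12 to 3.17). The joint differences of the 2 sets were thus close, while single members of the 10 ran from 2.08-fold to 5.73-fold lower. Both sets were cut at a ratio of 0.5 or less, so this is a description.

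**Figure D2:**
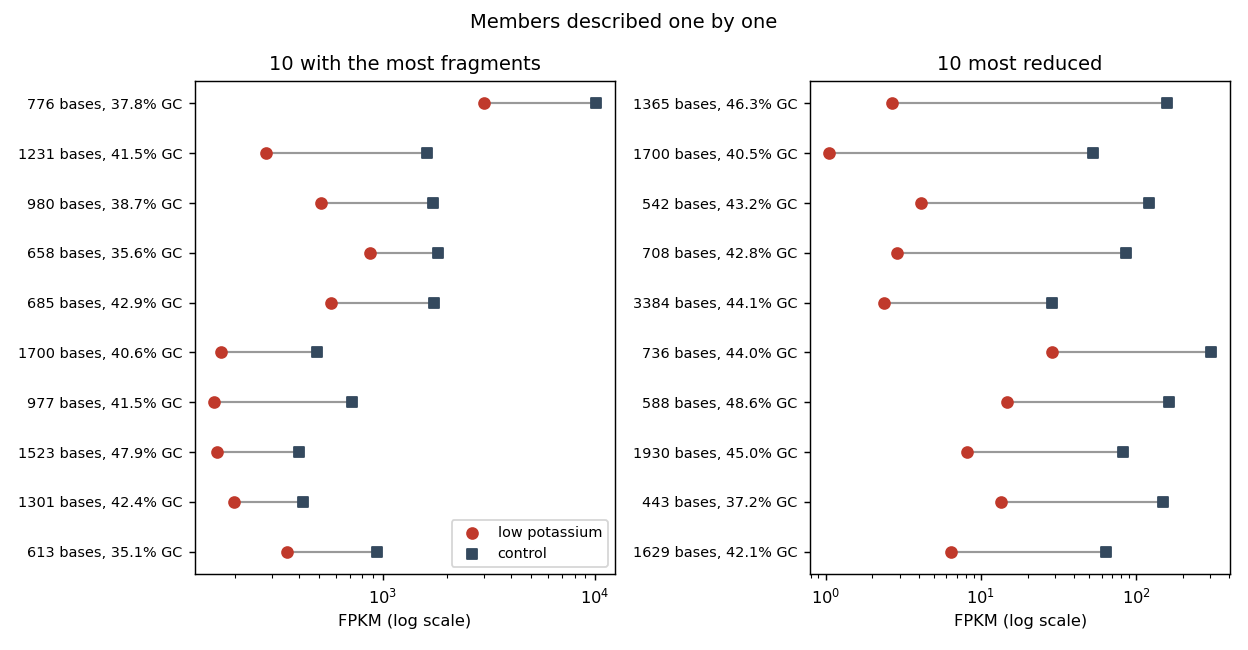
FPKM (log scale) in low-potassium roots (circles) and control roots (squares) of the 10 reduced unigenes with most fragments (left) and the 10 most reduced (right), each labelled by length and GC content. The left set spans 159 to 3007 FPKM under low potassium, and the right set 1.05 to 28.8 FPKM.

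The 4 most reduced unigenes had nearly all fragments in the control library. The first, CL9238.Contig1_All, has 1365 bases and 46.3% GC and is the one contig of its cluster in the fragment table. It had 59 fragments (2.67 FPKM) in low-potassium roots and 4072 (158 FPKM) in control roots, 59.1-fold lower (45.7 to 77.8). No read placed on it had several hits. The few low-potassium fragments covered 89.2% of its length and the control fragments 99.5%, so they were spread along the contig.

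Another lone contig, of 1700 bases and 40.5% GC, had 29 fragments (1.05 FPKM) in low-potassium roots, the fewest of any member, and 1711 (53.2 FPKM) in control roots. It was 50.5-fold lower (35.1 to 75.7). A contig of 708 bases had 33 fragments in low-potassium roots and 1161 in control roots, 30.1-fold lower (21.3 to 43.98). The single unigene of 542 bases had 36 fragments in low-potassium roots and 1253 in control roots, 29.8-fold lower (21.4 to 42.8). Reads with several hits were absent from all 4, and no member was at 0 in either library.

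The other 8 members lower by more than 8-fold included 1 of 269 bases with 485 low-potassium and 4990 control fragments, 8.81-fold lower (8.03 to 9.69). It shares its cluster with the 1231-base contig described above. The 12 members past 8-fold had 29 to 485 fragments in low-potassium roots and 1157 to 4990 in control roots. Cluster contigs made up 11 of the 12, against 67.2% of all members and 69.3% of the 4630 unigenes under the same limits. Reads with several hits were absent from 8 of the 12, against 51.7% of all members and 42.7% of the 4630. Covered length in these 12 was 68.3% to 99.5% with low-potassium reads and 86.5% to 99.9% with control reads.

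The 8 members between 8-fold and 16-fold lower varied in length and level. The longest of them, of 3384 bases, had 130 fragments (2.37 FPKM) in low-potassium roots and 1843 (28.8 FPKM) in control roots and was 12.1-fold lower (10.2 to 14.6). A contig of 736 bases had 344 fragments (28.8 FPKM) in low-potassium roots and 4258 (306 FPKM) in control roots, 10.6-fold lower (9.50 to 11.9). One of 1930 bases, with no read of several hits, had 254 low-potassium and 3027 control fragments and was 10.2-fold lower (8.98 to 11.6). A contig of 588 bases had 141 low-potassium and 1816 control fragments, 11.0-fold lower (9.29 to 13.2), but 93.0% of its placements were of reads with several hits. Its unique reads were 10.5-fold lower and its placements of reads with several hits 2.91-fold lower, both per library fragment total. On the 736-base contig 51.9% of placements were of such reads, and these were 2.88-fold lower, against 10.6-fold for its unique reads. Large differences by fragments were thus found both on contigs without reads of several hits and on contigs with many. On the 588-base and 736-base contigs the reads with several hits differed by much less.

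Cluster contigs and single unigenes among the members were alike in size of difference. The median was 2.84-fold lower for the 78 cluster contigs and 3.22-fold lower for the 38 single unigenes. Their median levels were 26.2 FPKM in low-potassium and 85.7 FPKM in control roots for the cluster contigs, and 22.5 FPKM in low-potassium and 83.6 FPKM in control roots for the single unigenes. Reads with several hits were absent from 30 of the 38 single unigenes and from 30 of the 78 cluster contigs. The longest member, a single unigene of 5137 bases without such reads, had 200 low-potassium and 1369 control fragments (2.40 FPKM under low potassium, 14.1 FPKM in the control), 5.86-fold lower. The shortest, a cluster contig of 207 bases, had 170 low-potassium and 838 control fragments (50.6 FPKM under low potassium, 214 FPKM in the control), 4.22-fold lower.

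Some clusters held 2 reduced unigenes, which were not always lower by the same amount. In 11 clusters 2 contigs were members, and none had more. In 7 of these 11 pairs the counting intervals of the 2 contigs did not overlap, and in 4 the folds differed by more than 2 times. The intervals cover counting error only, and no such count was made for other contig pairs, so nothing is read from these counts. The pair with the largest gap had no reads with several hits: the 708-base contig was 30.1-fold lower and its partner of 764 bases, with 178 low-potassium and 956 control fragments, was 4.60-fold lower (3.92 to 5.43). In a second pair free of shared reads, the contig of 443 bases had 97 low-potassium and 1249 control fragments, 11.0-fold lower (8.96 to 13.7). Its partner of 543 bases had 580 low-potassium and 1506 control fragments, 2.22-fold lower (2.02 to 2.45). The pair of 1392 and 1301 bases lay together, at 2.12-fold (1.99 to 2.27) and 2.11-fold lower (2.04 to 2.19), but more than 50% of its placements were of reads with several hits (89.0% and 55.4%).

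The remaining contigs of the members' clusters were mostly lower too, by less than the members. A contig that met every limit is itself a member, so that smaller difference is set in part by the choice. The 67 clusters hold 160 contigs in the fragment table, 82 of which are not members. Of 78 such contigs with 20 fragments or more, 25 (32.1%) had a ratio of 0.5 or less, against 4.08% of all 23723 cluster contigs with that many fragments. Another 36 lay between 0.5 and 1, 13 between 1 and 2, and 4 at 2 or more. Their median was 1.68-fold lower, whereas the median of all cluster contigs was a ratio of 1.26. At 100 fragments or more, 19 of 62 (30.6%) had a ratio of 0.5 or less, against 2.95% of 15348, and 0 had a ratio of 2 or more, which the cluster limit of the rule fixes. At 1000 fragments or more it was 1 of 26 (3.85%), against 3.35% of 3407. There a contig at 0.5 or less could stay outside the members only through its GC content, so the choice sets that share. Shared reads link contigs of a cluster, so contigs without such reads were counted alone, at 20 fragments or more. Of 25 other contigs of the members' clusters that had no read with several hits, 13 (52.0%) had a ratio of 0.5 or less, against 5.56% of 7758. Most of these 25 have 576 bases or fewer, and whether they are parts of the members' own transcripts was not checked. The clusters were picked through a reduced member, and the cluster limit removed some with a raised contig. The sets of all cluster contigs include the members and those removed clusters. The choice thus bears on these contrasts, and nothing is read from them.

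Summed over all its contigs, each of the 67 clusters was lower under low potassium, from 1.21-fold to 59.1-fold. These sums include the members, which were chosen for a low ratio, so they are a description. In 16 clusters every contig in the fragment table was a member. In the other 51 the members held a median of 69.5% of the cluster's control fragments, and the cluster sum was 2.17-fold lower in the median. For 32 of those 51 the sum was at a ratio of 0.5 or less, and for 19 it was above. By library totals, a reduction limited to 1 contig stood out in a cluster of 3. The member, of 1629 bases, had 171 low-potassium and 1979 control fragments and was 9.91-fold lower (8.47 to 11.7). Its 2 fellow contigs together had 2097 low-potassium and 2058 control fragments, a ratio of 1.19. That ratio is by library totals, where the median log2 ratio of unigenes under the same limits was 0.35. The other scalings described below lower every ratio, so whether the fellow contigs count as lower depends on the scale. The member's part of the cluster was 7.54% of low-potassium fragments and 49.0% of control fragments, and the sum was 1.52-fold lower (1.45 to 1.61).

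The smallest difference of a cluster sum was 1.21-fold (1.17 to 1.25). There the member of 794 bases and 40.2% GC had 785 low-potassium and 2485 control fragments, 2.71-fold lower, while the other contig had 4704 low-potassium and 5261 control fragments, a ratio of 1.04. Some other clusters held a further contig that was lower than the member. Beside the member of 794 bases and 35.1% GC, with 1072 low-potassium and 4828 control fragments, stood a contig with 3 low-potassium and 115 control fragments. Beside the member of 772 bases, with 257 low-potassium and 1386 control fragments, stood one with 13 low-potassium and 433 control fragments. These further contigs, of 32.7% and 51.6% GC, lie outside the GC limits.

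**Figure D3:**
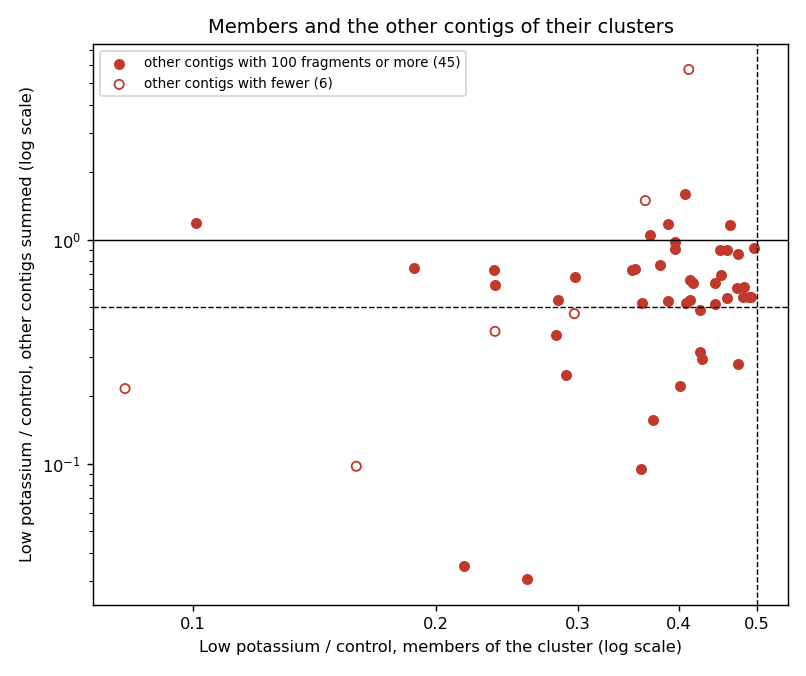
Ratio of low-potassium to control fragments per library total, for the members of a cluster (horizontal, log scale) and for the other contigs of that cluster summed (vertical, log scale), in the 51 clusters with other contigs. The solid line marks no difference and dashed lines a ratio of 0.5; the other contigs lie below 1 in 44 clusters and at 0.5 or less in 15.

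Reads with several hits were unevenly spread over the members. There were none on 60 of the 116 (51.7%), against 41.9% of the 4148 unigenes within 2-fold. On 21 members (18.1%) they outnumbered the uniquely mapped reads, against 19.3%. By uniquely mapped reads as a share of all such reads, 113 of the 116 were again at a ratio of 0.5 or less (2.51% of the 4630 under the same limits were). The other 3 lay at 0.501 to 0.506, and 3 unigenes from within 2-fold came under the limit in turn. Among the members, 2 moved further than the rest, both away from the limit. A single unigene of 564 bases was 2.92-fold lower by fragments and 4.49-fold lower by unique reads. Another of 674 bases was 2.08-fold lower by fragments and 3.63-fold lower by unique reads. More than 90% of the placements on both were of reads with several hits (92.2% and 90.3%).

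For 35 members with 100 or more placements of reads with several hits in each library, the 2 kinds of read were set side by side, both per library fragment total. Ratios of uniquely mapped reads lay between 0.0944 and 0.491 and those of reads with several hits between 0.219 and 1.99. In 30 of the 35 the ratio for reads with several hits was the higher. The members were chosen for a low fragment ratio, which the unique reads share more closely, so this count is a description. It was 0.5 or less in 16, between 0.5 and 1 in 15 and at 1 or more in 4. The 9.91-fold lower contig of 1629 bases had 308 unique reads in low-potassium roots and 3444 in control roots, but 446 low-potassium and 262 control placements of reads with several hits. A contig of 2993 bases had 344 low-potassium and 818 control unique reads beside 29558 low-potassium and 33555 control placements of reads with several hits, a ratio of 1.03 for the shared reads. In 6 members the fragments outnumbered the uniquely mapped reads in at least 1 library, so their fragment counts include reads with several hits.

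**Figure D4:**
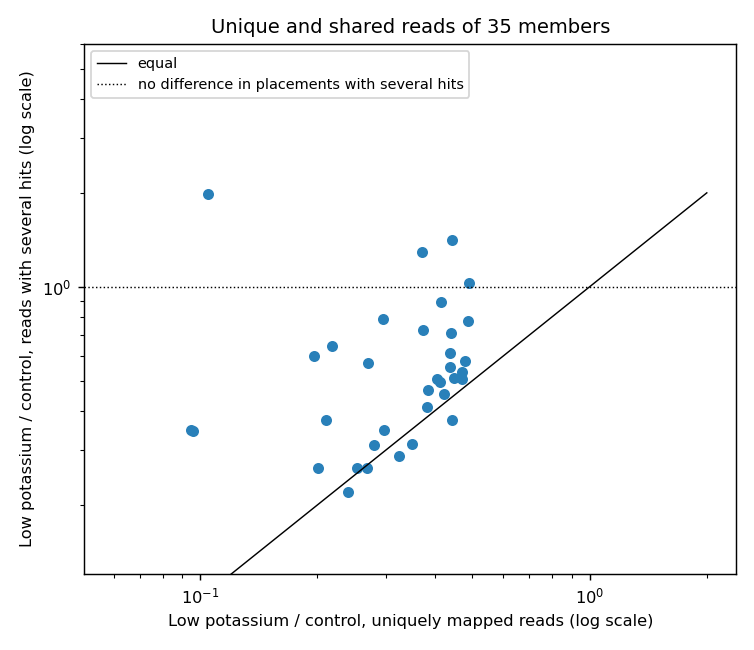
Ratio of low-potassium to control reads for uniquely mapped reads (horizontal, log scale) and for reads with several hits (vertical, log scale), per library fragment total, in the 35 members with 100 or more of the second kind in each library. The solid line marks equal ratios and 30 points lie above it; the dotted line marks no difference in reads with several hits.

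Reduced unigenes tended to be shorter than the unigenes within 2-fold. Their median length was 1141.5 bases (middle 50% from 775.5 to 1678), against 1434.5 bases (943 to 2039). The 366 unigenes at least 2-fold higher were alike in this, with a median of 1124 bases. From 500 to under 1000 bases, 45 of 1123 unigenes under the same limits (4.01%) were reduced, and at 2000 bases or more 12 of 1178 (1.02%). Below 500 bases it was 7 of 264 (2.65%), so the share did not keep growing as length decreased. The median log2 ratio of all unigenes under the same limits also varied with length. It was 0.38 below 500 bases, 0.30 from 500 to under 1000 and 0.42 at 2000 or more, and its part in these shares was not tested. Lengths are those of the assembled contigs, which can be shorter than their transcripts.

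Within the GC limits the reduced share was larger at both ends than in the middle. It was 5.76% of 434 unigenes at 35 to under 38% GC, 2.75% at 38 to under 41%, 1.46% of 1912 at 41 to under 44% and 1.89% at 44 to under 47%. At 47 to under 50% GC it was 6.29%, or 10 of 159 unigenes. The share at least 2-fold higher was 11.1%, 7.45%, 5.13%, 12.1% and 20.1% in these classes. It too was lowest at 41 to under 44%, but at 44 to under 47% it was already above its value in the first class. The median log2 ratio of all unigenes under the same limits rose from class to class, from 0.25 in the first to 0.46 in the last. The shares thus lie on a shift with GC content over all these unigenes, whose part in them was not tested. The median GC content was 40.4% for the reduced unigenes, 41.55% for those within 2-fold and 41.6% for those at least 2-fold higher. By ID, 78 of 3208 cluster contigs (2.43%) and 38 of 1422 single unigenes (2.67%) were reduced, so the 2 kinds of ID hardly differed in this.

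**Figure D5:**
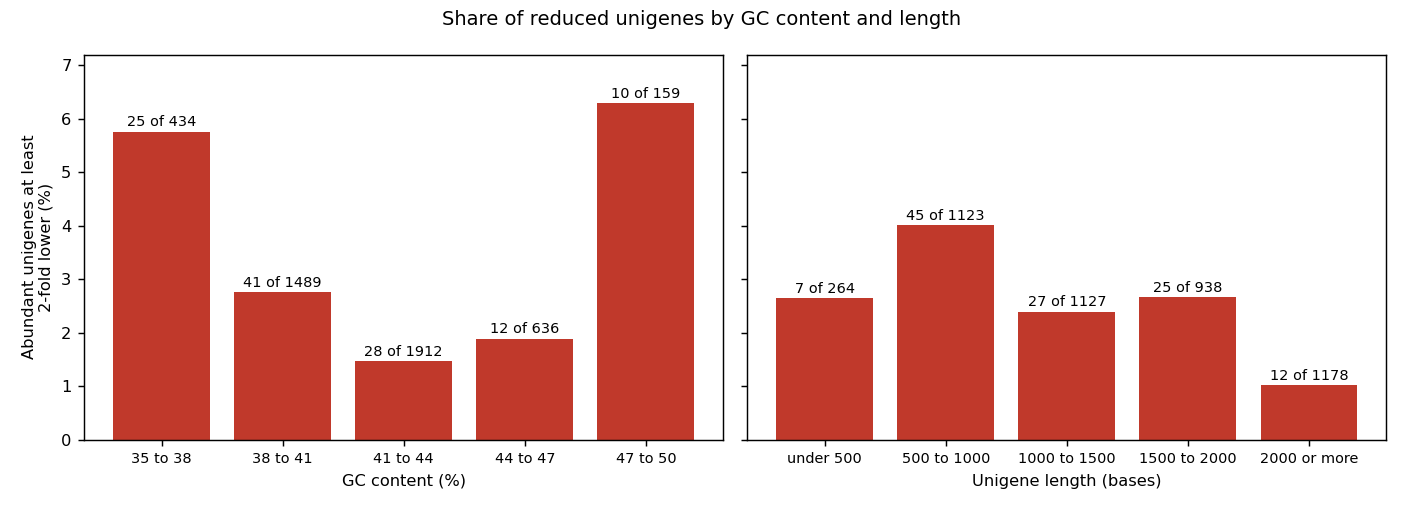
Percent of abundant unigenes under the same limits that were at least 2-fold lower in low-potassium roots, by GC content (left) and by unigene length (right), with the number reduced of the number in each class above the bar. The outer GC classes stand at 5.76% and 6.29% and the lowest length share is 1.02% at 2000 bases or more.

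Among the 116 themselves, how far a unigene was lower had at most a weak relation to the features compared. Across members, the log2 ratio had a Spearman rho of 0.05 with length, -0.03 with control FPKM and -0.20 with GC content (Pearson's r 0.07, -0.01 and -0.25, with length and FPKM on a log2 scale). With total fragments rho was 0.09 (r 0.12, on a log2 scale), and with the percent of placements with several hits 0.18 (r 0.15). These are descriptions across 116 unigenes of the same 2 libraries, which are not independent replicates, and the log2 ratio shares its control count with the control FPKM. The ratio limit also cuts the range of the log2 ratio, which bears on the size of these values.

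Covered length leaned the same way as the counts in most members. The median member had 98.9% of its length covered in low-potassium roots and 99.6% in control roots, against 99.5% in low-potassium and 99.3% in control roots for unigenes within 2-fold. In 87 of the 116 the covered length was smaller with low-potassium reads, against 34.6% of those within 2-fold. The members were chosen for fewer low-potassium fragments, and covered length comes from reads of the same 2 libraries. The choice thus bears on this contrast, and nothing is read from it. Under 90% was covered in 10 members with low-potassium reads and in 1 with control reads. Among the 4148 unigenes within 2-fold, under 90% was covered in 32 with low-potassium reads and in 39 with control reads. The lowest was the 542-base single unigene, at 68.3% with its 36 low-potassium fragments and 99.3% with its 1253 control fragments. The part that fewer reads play in these lower values was not tested.

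The scale chosen for the libraries sets how many unigenes count as reduced. By library totals, 24.1% of the 482 unigenes past 2-fold under these limits were lower. TMM scaling, built so that most unigenes show no difference, subtracts 0.40 from every log2 ratio. It brings the median of the 4630 to -0.05, and then 249 were at a ratio of 0.5 or less (5.38%) and 176 at 2 or more (3.80%), so that 58.6% of those past 2-fold were lower. The same subtraction puts the 116 members at 2.65-fold lower or more, with a median of 3.92-fold. Since it moves every ratio down alike, no member could leave the set by it.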

How the data were processed

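Root RNA was sequenced in 2 libraries, 1 per condition, per the labels' protocols. The authors deposited a table of raw fragment counts and FPKM values per unigene, with a log2 ratio and, from a test that the sources used here do not name, a p-value and FDR. Per the file headers, a coverage table per library gives counts of uniquely mapped reads and of reads with several hits, the mean depth of coverage (signal, not used), and the percent of length covered and of GC. For the assembler, aligner and counting program no name is given in the labels or headers.

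Members were taken by the FPKM ratio of the authors' values (a value of 0 set to 0.01). Members and lists were chosen with earlier results of these data known. Ratios are low potassium over control; "n-fold lower" is control over low potassium. Intervals are exact 95% Clopper-Pearson intervals of the fragment counts, converted to ratios; they cover counting error only, since PCR copies cannot be told from separate molecules. The interval step was tested on simulated data. Scaling factors came from edgeR 4.0.16 in R 4.3.3, and the rest from Python 3.11.15 with pandas 2.3.3 and scipy 1.17.1. Members described singly are the 10 with most fragments, the 10 with the lowest upper bound of the ratio, those at the limits and those of the clusters; the pairs, cluster examples and read-placement examples were picked after their values were seen. Only 2 IDs are printed, since IDs carry no gene name.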

Additional observations from a re-analysis of the deposited data

How the results depend on the processing

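With the cluster limit applied anew on each scale, the number of reduced unigenes was 251 with TMM, 255 with median-ratio and 252 with upper-quartile scaling, against 116 by library totals. It was 205 with totals that leave out the 2 most abundant unigenes. A minimum of 500, 2000 or 20 fragments gave 202, 55 or 1161, and a ratio limit of 0.25 gave 38. The other 9 alternatives for that number, among them the whole counting interval (103), unique reads (114), either pseudocount (116 and 115), thinning of the control library (105) and, added later, cluster sums (97), stayed within 1.5 times. The median log2 ratio of the members, -1.58, became -1.97, -1.98 and -1.97 with these 3 scalings and -1.88 without the 2 unigenes. The members' share of the low-potassium and control libraries was 0.915% and 3.45% by summed FPKM, 0.939% and 2.97% by unique reads, 0.672% and 2.11% without the most abundant member, and 1.01% and 3.98% of totals without the 2 unigenes. Leaving out the 2 unigenes, leaving out that member and the cluster sums were chosen after the data were seen. The 3 scalings move every member further below 1 by a common factor, so they could turn no member's direction. Other limits and denominators shift these values by construction. No paired analysis was possible because there was only 1 library on each side. Depth limits the most reduced members, which rest on as few as 29 low-potassium fragments.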
